A study of Mus musculus with 18 samples.

Results

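Among 18 mouse lymphomas, 4 had a very low signal at 1 of the array's 2 probes for Ikzf1, the gene of the transcription factor Ikaros. Lymphomas 4, 11, 14 and 16 were chosen by their log2 ratio to thymus at that probe, number 96 on the array, which lay below -3, an 8-fold deficit. The other 14 lymphomas lay above it. All 18 came from mice carrying the triple knock-out Atm-/-, mTerc-/-, p53-/-, which lack a kinase that signals DNA breaks, the RNA of telomerase and the p53 tumour suppressor. Each lymphoma's RNA was hybridised with a dye swap against a thymus reference from healthy p53 heterozygous animals aged 3 weeks, and has 1 ratio per probe. Neither tumours of other genotypes nor thymus of the knock-out mice were measured, the ages of the tumour-bearing mice are not given in the labels, and the labels do not say that the lymphomas came from separate mice. The p-values below therefore measure only the spread between these samples.

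Ikaros is a zinc finger protein that binds DNA in lymphocytes and their precursors, partly within the Mi-2/NuRD and Sin3 co-repressor complexes. In developing thymocytes it restrains target genes of the receptor Notch1. Loss of Ikaros activity leads to T cell leukaemia and lymphoma in mice, often together with activated Notch1, and the related proteins Helios (Ikzf2), Aiolos (Ikzf3), Eos (Ikzf4) and Pegasus (Ikzf5) can pair with it.

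RefSeq places 2 transcription starts of Ikzf1 on the plus strand of chromosome 11. Their windows, from 250 bases before the start to 50 bases after it, are shown because the probes of the gene disagreed in 1 lymphoma, although neither probe can be placed on a transcript with the sources used here. Both are on assembly GRCm38.p6, at chr11:11685675-11685974 for the first and chr11:11689927-11690226 for the second. The first is 81.3% G and C with 52 CpG dinucleotides, and the second is 49.0% G and C with 2.
Ikzf1 start 1: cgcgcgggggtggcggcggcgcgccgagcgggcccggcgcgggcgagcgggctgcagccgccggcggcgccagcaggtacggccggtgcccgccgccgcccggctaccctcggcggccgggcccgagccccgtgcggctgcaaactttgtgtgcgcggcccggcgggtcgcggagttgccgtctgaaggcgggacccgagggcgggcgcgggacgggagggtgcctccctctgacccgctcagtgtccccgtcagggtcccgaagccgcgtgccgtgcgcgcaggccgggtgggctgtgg
Ikzf1 start 2: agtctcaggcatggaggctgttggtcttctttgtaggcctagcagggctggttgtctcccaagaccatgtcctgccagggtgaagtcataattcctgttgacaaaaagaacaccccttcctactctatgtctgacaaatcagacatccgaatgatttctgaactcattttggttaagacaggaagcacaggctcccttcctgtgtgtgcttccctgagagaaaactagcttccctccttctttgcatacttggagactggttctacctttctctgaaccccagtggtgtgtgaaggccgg
The hexamer TGGGAA, or TTCCCA on the other strand, holds the core letters of DNA sites bound by Ikaros. Neither window contained it. It is in capitals in the windows of 2 genes described below, Slc7a7 (chr14:54409423-54409722, minus strand, 1 of several starts) and Ppil2 (chr16:17111203-17111502, minus strand). The window of Csta2 (chr16:36221312-36221611, plus strand), the gene with the widest gap between the groups, had none.
Slc7a7: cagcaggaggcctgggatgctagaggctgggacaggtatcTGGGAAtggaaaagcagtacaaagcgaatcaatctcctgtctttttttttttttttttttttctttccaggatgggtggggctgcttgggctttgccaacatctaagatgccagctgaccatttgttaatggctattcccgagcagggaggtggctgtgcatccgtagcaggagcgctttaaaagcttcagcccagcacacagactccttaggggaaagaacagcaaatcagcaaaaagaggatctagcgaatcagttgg
Ppil2: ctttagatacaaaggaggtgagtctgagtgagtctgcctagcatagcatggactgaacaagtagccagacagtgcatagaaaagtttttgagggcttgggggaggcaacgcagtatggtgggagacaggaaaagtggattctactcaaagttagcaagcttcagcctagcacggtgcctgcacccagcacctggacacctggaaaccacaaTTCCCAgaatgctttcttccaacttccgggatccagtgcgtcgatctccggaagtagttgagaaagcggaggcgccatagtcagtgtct
Csta2: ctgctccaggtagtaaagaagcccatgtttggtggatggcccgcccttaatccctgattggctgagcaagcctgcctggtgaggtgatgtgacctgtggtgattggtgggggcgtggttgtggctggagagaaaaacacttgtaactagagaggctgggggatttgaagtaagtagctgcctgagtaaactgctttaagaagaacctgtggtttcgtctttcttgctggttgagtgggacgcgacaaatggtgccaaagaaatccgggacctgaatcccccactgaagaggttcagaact
Of all tested genes with a window, 27.2% of 14545 had the hexamer in at least 1 window. Among genes whose values did not overlap between the groups, it was present in 1 of 5 higher and 4 of 14 lower genes that had a window. Such a match describes letters and not a bound site.

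The ratio is given as lymphoma over thymus, which is the likely direction and is not stated in the labels, and log base 10 of the deposited values was inferred. Every fold below depends on that base. At probe 96 the log2 ratio was -5.79 in lymphoma 4, -5.22 in lymphoma 11, -3.81 in lymphoma 14 and -6.04 in lymphoma 16, with a mean of -5.21 ± 1.0 (SD, n = 4), or 37.1-fold below thymus. The other 14 lymphomas ranged from -1.81 to 0.39, with a median of -0.86 and a mean of -1.0 ± 0.68 (SD, n = 14). The member nearest to the limit was lymphoma 14, and the nearest lymphomas outside it were 3 and 15, both at -1.81. No lymphoma lay between these values, so a limit of -2 chose the same 4. Since this probe chose the lymphomas, its difference is a description and has no test.

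The second Ikzf1 probe, number 3711, did not follow in every member. It was 1.99 in lymphoma 4, the highest of the 18, and -3.37 in lymphoma 11 and -3.27 in lymphoma 16, the lowest. Lymphoma 14, at -1.97, had the third lowest value, and the other 14 ranged from -1.57 in lymphoma 7 to 1.48 in lymphoma 10 with a median of -0.06. Low Ikzf1 signal at both probes was thus measured in lymphomas 11, 14 and 16, while lymphoma 4 combined a 55.2-fold deficit at probe 96 with a 3.97-fold excess at the other. For that reason the group is named here by probe 96 and not by loss of the gene's transcript. The gap between the probes in lymphoma 4 was 7.78 on the log2 scale. No other of the 7665 genes with values from several probes in lymphoma 4 had probes as far apart, and the median gap there was 0.52. In the 14 lymphomas outside the group, probe 96 minus the second probe ran from -1.86 to 0.58 with a median of -1.22. The same quantity was -1.85 in lymphoma 11, -1.84 in lymphoma 14 and -2.77 in lymphoma 16.

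**Figure D1:**
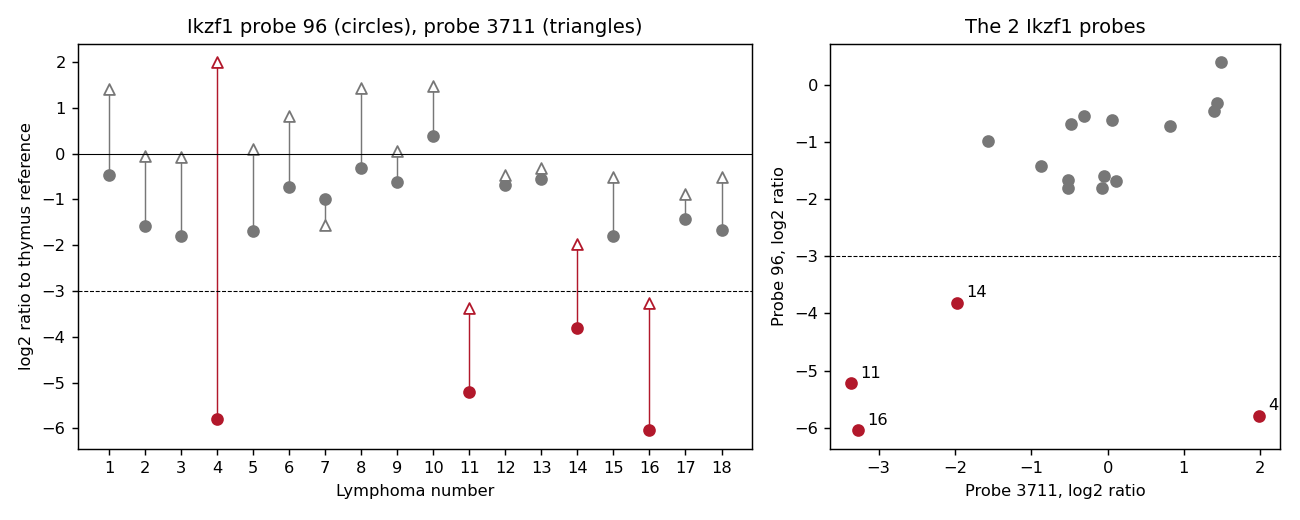
Left, log2 ratio to thymus (vertical axis) of both Ikzf1 probes in each of the 18 lymphomas (horizontal axis), circles for probe 96 and open triangles for probe 3711, joined by a line. Right, probe 96 against probe 3711. Red marks the 4 lymphomas below the dashed limit at -3. Lymphoma 4 is at -5.79 on probe 96 and 1.99 on the second probe, and lymphomas 11 and 16 are the lowest on the second probe.

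Some lymphomas stood apart over the whole array. Over 17001 genes measured in all lymphomas, the median correlation with the other lymphomas was 0.25 for lymphoma 14, 0.10 for lymphoma 7 and 0.31 for lymphoma 12, against 0.59 to 0.66 for the rest. These genes share arrays and a common reference, so the coefficients are descriptions. Lymphomas 11 and 16 were the most alike of 153 pairs (r = 0.85), and the next pair reached 0.79. After each gene's mean over the 18 lymphomas was subtracted, their correlation was 0.50, while the other pairs within the group ranged from -0.31 to 0.09. Whether 11 and 16 are independent tumours was not tested. The share of probes without a value was 2.27% to 7.79% per array, and precision is limited by how many arrays there are.

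Lymphoma 14 also differed from the other 3 in cell markers. The mean log2 ratio of 16 measured genes of the T cell receptor complex and its signalling was -3.01 in lymphoma 14, the lowest of the 18. It was -0.71 in lymphoma 4, -0.24 in lymphoma 11 and -0.17 in lymphoma 16, within the range of -1.59 to 0.18 of the others. Zap70, the kinase that the receptor recruits, was -2.80 in lymphoma 14 and between 0.65 and 1.08 in the other members. The adaptor Lat was -3.78 in lymphoma 14 and between -0.01 and 0.31 in the other members. The receptor subunit Cd3d was -3.48 there and between -0.30 and 0.38. In these bulk samples, fewer cells of a type and less RNA per cell cannot be told apart. Both Ikzf1 probes were low in lymphomas 11 and 16 too, the most alike pair, with the T cell receptor list at -0.24 and -0.17. The part of T cell signal in the low Ikzf1 values of lymphomas 11, 14 and 16 was not tested.

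The comparison of the 4 lymphomas with the other 14, gene by gene, asks which other transcripts accompany the low probe 96 value. No gene of 18147 passed limma with Benjamini-Hochberg adjustment at 0.05, that is 0.0% called, and the smallest adjusted p was 0.155. An unadjusted limma p under 0.05 was reached by 1219 genes (6.72%), 692 of them higher (3.81%) and 527 lower (2.9%) in the 4. This count was 796 without lymphoma 14 and reached 1497 without lymphoma 16, the lowest and highest when 1 lymphoma was left out. The median difference over all genes was -0.03, and the median standard error of a gene's difference was 0.30 on the log2 scale. All genes described from here on failed the adjusted test unless another setting is named, and their values are given as measured.

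In 24 of 17001 genes (0.141%) the groups did not overlap, 8 with all 4 lymphomas above the other 14 (0.0471%) and 16 with all 4 below (0.0941%). Lrrn3, a neuronal leucine-rich repeat membrane protein gene, had the smallest p. It was 1.20 in lymphoma 4, 1.53 in lymphoma 11, 2.01 in lymphoma 14 and 1.5 in lymphoma 16, against -2.36 to 0.70 with a median of -1.65 in the other 14. All 4 members were above thymus while most of the others were below it. The difference was 2.96 (SE 0.49), 7.78-fold, with an adjusted limma p of 0.155. Its 2 probes both lay higher, by 4.57 and by 1.35, so its size depends on the probe. Without lymphoma 14 the difference was 2.81 (limma adjusted p = 0.266).

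Slc7a7, an amino acid transporter subunit, was 0.83, 0.98, 1.35 and 0.91 in lymphomas 4, 11, 14 and 16, and from -3.16 to 0.44 in the others. The 4 lay close together just above a wide range, with a difference of 1.92 (SE 0.60). Without the 7 lymphomas lowest in macrophage genes the difference was 1.02, so its size moved with these markers, whose part in it was not tested. Spred1, an inhibitor of Ras and MAP kinase signalling, was 0.85, 0.69, 1.84 and 0.60 in the same order, and from -2.0 to 0.41 in the others. Its 3 probes differed by 1.34 to 1.44, and the gene by 1.39 (SE 0.39). Arhgef15, a guanine nucleotide exchange factor found in blood vessels, was 1.20, 1.30, 2.18 and 0.91, and at most 0.81 elsewhere. In Spred1 and Arhgef15 lymphoma 14 was the highest, and the differences without it were 1.11 and 1.12. The remaining higher genes were Socs5, a suppressor of cytokine signalling (0.99), 4632427E13Rik (0.79), Uggt2, a homologue of the glycoprotein folding sensor of the endoplasmic reticulum (0.76), and Sem1, a proteasome component (0.43), each number being the difference in log2 ratio.

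Of the 16 lower genes, Csta2, a member of the stefin A family of cysteine protease inhibitors, had the widest gap. It was -1.93 in lymphoma 4, -2.12 in lymphoma 11, -2.39 in lymphoma 14 and -2.11 in lymphoma 16, whereas the other 14 ranged from -0.98 to 2.89. The 4 values lay within a narrow band, 0.94 below the lowest of the others, and the difference was -2.69 (SE 0.60, adjusted limma p = 0.427). It rests on 1 probe, and close copies of this gene exist, so its signal is uncertain. Acot1, an acyl-CoA thioesterase with close paralogs, differed by -2.26 (SE 0.58), with -3.32 in lymphoma 16 and -1.16 to -1.0 in the other 3. Spint2, a serine protease inhibitor, differed by -1.94 with lymphoma 14 at -4.79 and by -1.01 without it. Sftpa1, a surfactant protein gene, differed by -1.62 and Dnajb13, a co-chaperone of cilia and sperm tails, by -1.42. Zyg11b, a substrate receptor of an E3 ubiquitin ligase, differed by -0.86, Tmem81 by -0.81, 4930526F13Rik by -0.67, Upk1a, a uroplakin, by -0.66 and Pip4k2c, a phosphoinositide kinase, by -0.56.

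**Figure D2:**
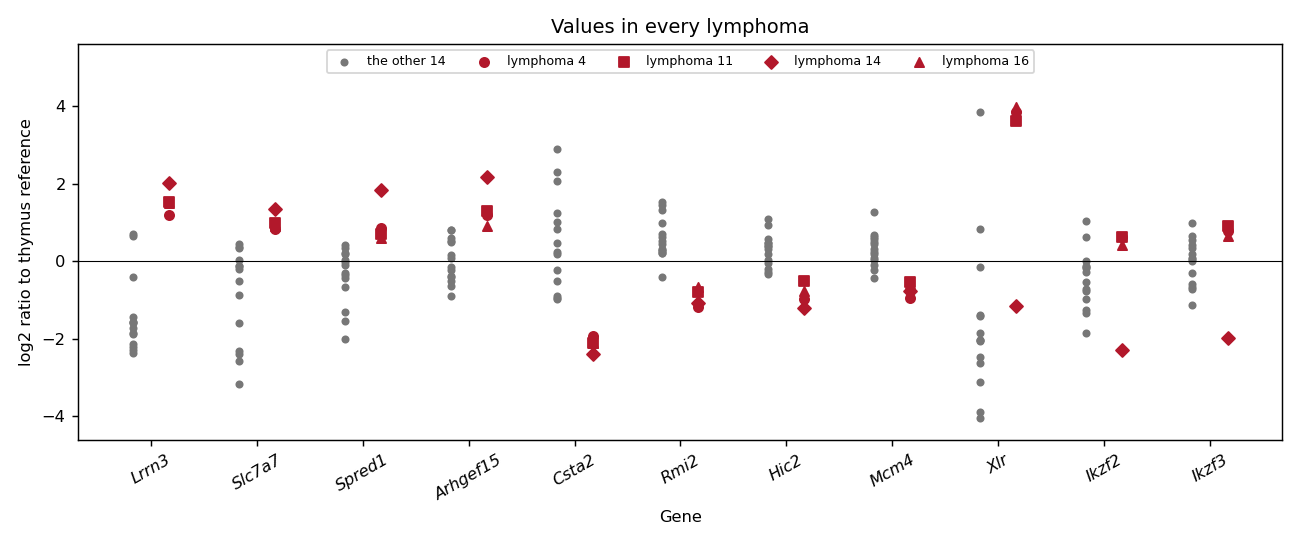
Log2 ratio to thymus (vertical axis) of 11 genes (horizontal axis), grey dots for the other 14 lymphomas and red symbols for lymphomas 4, 11, 14 and 16. Lrrn3, Slc7a7, Spred1 and Arhgef15 lie above all others and Csta2, Rmi2, Hic2 and Mcm4 below all others, while lymphoma 14 parts from the other 3 in Xlr, Ikzf2 and Ikzf3.

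**Figure D3:**
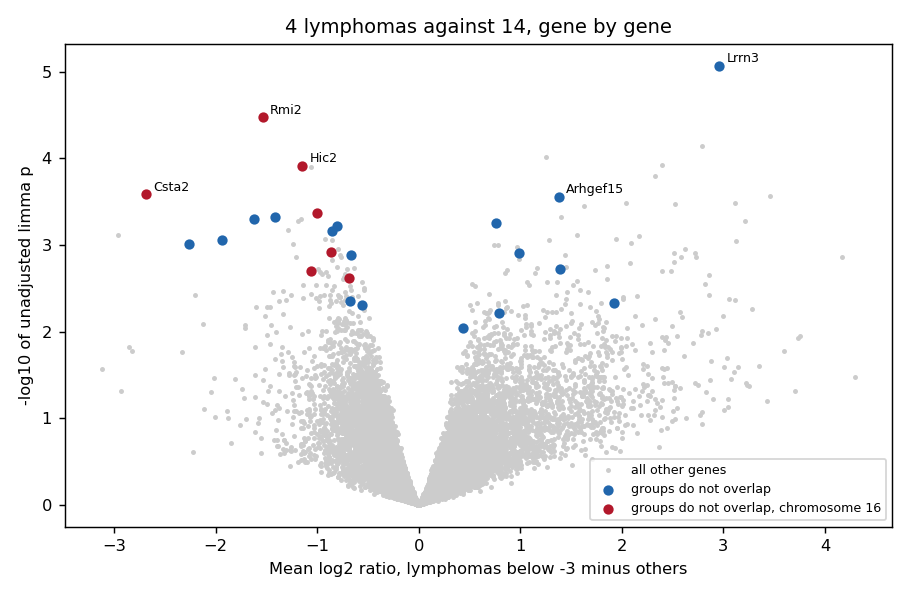
Mean log2 ratio of the 4 lymphomas minus that of the other 14 (horizontal axis) against -log10 of the unadjusted limma p (vertical axis), 1 point per gene, Ikzf1 left out. Blue and red points are the 24 genes whose groups do not overlap, red for the 7 on chromosome 16, all of them lower.

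Of the 16 lower genes 7, Csta2 among them, lie on chromosome 16, which holds 583 of the tested genes. Rmi2 encodes a subunit of the complex that dissolves DNA crossovers with the Bloom helicase. It was -1.18, -0.80, -1.08 and -0.67 in lymphomas 4, 11, 14 and 16, and from -0.40 to 1.53 in the others. All 4 were below thymus, most of the others above it, and the difference was -1.54 (SE 0.28, adjusted limma p = 0.302). Hic2, a zinc finger transcription repressor, was -0.98, -0.51, -1.20 and -0.76, against -0.32 to 1.08, a difference of -1.15 (SE 0.24), and both of its probes lay lower (-1.05 and -1.25). Mcm4, a subunit of the replicative helicase, was -0.94, -0.53, -0.77 and -0.58, against -0.44 to 1.26, a difference of -1.0 (SE 0.23). Smpd4, a sphingomyelinase, differed by -1.06, Ess2, a splicing-associated nuclear protein, by -0.86 and Ppil2, a cyclophilin-type ubiquitin ligase, by -0.69.

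Apart from Csta2, these genes are close neighbours in gene order. The genes of each chromosome were divided, in RefSeq order, into 364 blocks of up to 50 consecutive measured genes. The block from Pkp2 to Txnrd2 on chromosome 16, which holds Hic2, Smpd4, Ess2 and Ppil2, had the lowest median difference of all, -0.55. Its median log2 ratio was -0.51 in lymphoma 4, -0.40 in lymphoma 11, -0.13 in lymphoma 14 and -0.40 in lymphoma 16, and from -0.07 to 0.54 in the others. Thus the 4 lay below all 14, with lymphoma 14 nearest to them, and this was the 1 block of 364 (0.275%) without overlap. In it 24 of 50 genes had an unadjusted limma p under 0.05, all lower, beside 2.9% lower in the background. The preceding block, 1810013L24Rik to Spidr, which holds Rmi2 and Mcm4, had a median difference of -0.38 with 12 such lower genes, and the following block, Gnb1l to Tra2b, of -0.35 with 18. Beyond them, from Etv5 on, the median differences of the blocks lay between -0.12 and 0.17. On chromosome 16 as a whole 14.8% of the genes had an unadjusted limma p under 0.05, the highest share of the 20 chromosomes counted, followed by the X chromosome with 9.97%. The highest block median difference, 0.50, was that of Hnrnph2 to Tsc22d3 on the X chromosome, with 13 of 50 genes at such a p, all higher. Its median log2 ratio was 0.54 in lymphoma 11, 0.58 in lymphoma 16, 0.15 in lymphoma 14 and -0.31 in lymphoma 4. The others ran from -0.45 to 0.34, so the groups overlapped there.

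Further genes of this region, chosen after their values were seen, also lay lower in the 4 lymphomas. Pi4ka, a phosphoinositide kinase, was -1.0, -0.67, -0.48 and -0.82 in lymphomas 4, 11, 14 and 16 and differed by -0.79 (SE 0.21). Hira, a histone chaperone, was -0.21, -0.56, -0.70 and -0.44 and differed by -0.73 (SE 0.21). Crkl, an adaptor of tyrosine kinase signalling, differed by -0.54 and Tmem191c by -1.24. Prkdc, the catalytic subunit of the DNA-dependent protein kinase that joins broken ends, was -0.60, -0.09, -0.86 and -0.19 and differed by -0.80 (SE 0.28), or by -0.50 without the 7 lymphomas lowest in macrophage genes. All 5 overlapped the other lymphomas. The block median difference stayed between -0.69 and -0.46 in the 34 other settings in which genes were the unit, with -0.69 without lymphoma 14, -0.51 without lymphoma 4 and -0.54 with lymphomas 11 and 16 counted as 1. These are RNA ratios, and DNA copy number was not analysed here.

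**Figure D4:**
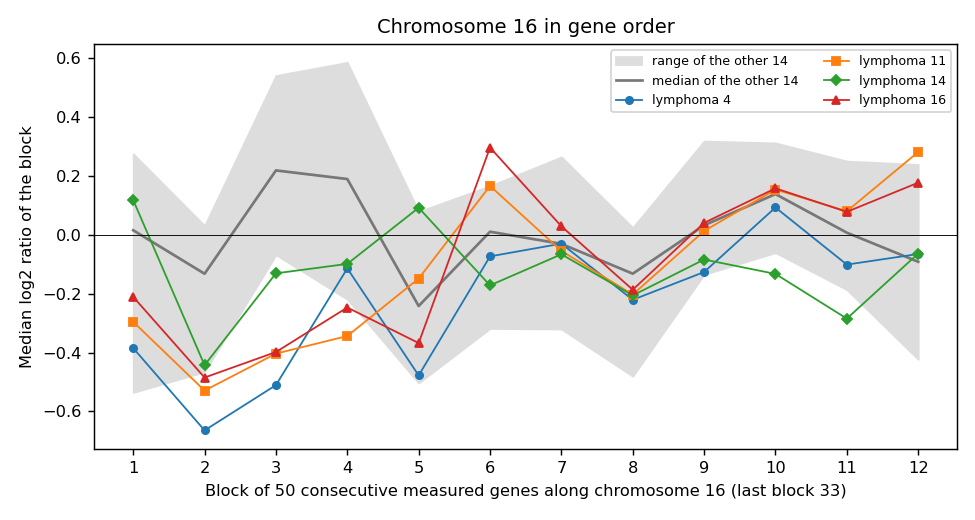
Median log2 ratio to thymus (vertical axis) of 12 consecutive blocks of genes along chromosome 16 (horizontal axis). The grey band is the range and the grey line the median of the other 14 lymphomas, and coloured lines are lymphomas 4, 11, 14 and 16. In the third block the 4 lines lie between -0.51 and -0.13, below the band.

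The genes around Ikzf1 on chromosome 11 gave no call after adjustment. Of the 10 measured genes on each side, 0 of 20 passed limma after adjustment and 0 had an unadjusted p under 0.05, with differences from -0.59 to 0.63 and a median near 0. The wider block of 50 genes that holds Ikzf1, Ccdc117 to Fbxo48, had a median difference of 0.13, and the groups overlapped. In it 8 genes had an unadjusted limma p under 0.05, beside 6.72% of all genes. The count includes Ikzf1, the 1 lower gene, and the rest were higher. Since the other Ikzf1 probe chose the lymphomas, the low p of Ikzf1 is no test. The following block, Plek to Ccdc88a, had a median difference of 0.26 with 5 such genes, all higher. Single lymphomas were high near the gene. Fignl1, a AAA ATPase of DNA repair, was 1.24 in lymphoma 4 and at most 0.62 in the 14 others, and Ddc, aromatic amino acid decarboxylase, was 2.10 in lymphoma 4 and at most 1.66 in the others. Spata48 was 2.10 in lymphoma 11 and 2.07 in lymphoma 16, -0.02 in lymphoma 4 and -1.14 in lymphoma 14, and at most 1.17 in the others. Lymphoma 4 was thus the highest of the 18 at both Fignl1 and Ddc. Over the block that holds Ikzf1 its median log2 ratio was 0.21, below 0.26 in lymphoma 16 and 0.22 in lymphoma 1. Over the following block it was 0.46, against at most 0.05 in the 14 others. A link of these values to its high second Ikzf1 probe was not tested. Zpbp differed by -0.33, Grb10, an adaptor of growth factor receptors, by 0.63 and Cobl, an actin nucleator, by -0.59.

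The other Ikaros family genes split the group. Helios (Ikzf2) was 0.62 in lymphoma 4, 0.62 in lymphoma 11 and 0.43 in lymphoma 16 but -2.29 in lymphoma 14, and from -1.85 to 1.03 in the others. Aiolos (Ikzf3) was 0.79, 0.90 and 0.66 in lymphomas 4, 11 and 16 and -1.98 in lymphoma 14, and from -1.12 to 1.0 in the others. For both genes lymphoma 14 was the lowest of the 18, and the other 3 lay in the upper part of the range. The difference was 0.31 (SE 0.50) for Ikzf2 and 0.10 (SE 0.44) for Ikzf3 over all 4. Without lymphoma 14 the differences were 1.02 and 0.79, with an unadjusted limma p of 0.031 and 0.036. The adjusted limma p was 0.998 for each, and 796 of 18147 genes had an unadjusted limma p under 0.05 in that setting. Ikzf4 differed by -0.17 (SE 0.20) and Ikzf5 by 0.05 (SE 0.30).

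Of 18 genes of the complexes in which Ikaros works, 0 passed and 3 had an unadjusted limma p under 0.05, all lower. Over all genes 6.72% reached that p, with 2.9% lower and 3.81% higher, the background for each list count from here on. The list's median difference was -0.26 beside -0.03 over all genes. Without lymphoma 14 the list had 1 such gene and a median of -0.15. Chd3, a Mi-2 family helicase of NuRD, was -2.49 in lymphoma 11 and -2.80 in lymphoma 16, below the range of -1.61 to 0.94 of the other 14, but -0.66 in lymphoma 4 and -0.18 in lymphoma 14. Its difference was -1.22 (SE 0.52), -1.67 without lymphoma 14, -0.80 without lymphoma 16 and -0.85 with lymphomas 11 and 16 counted as 1. Smarca4, a helicase of the SWI/SNF complex, differed by -0.58 (SE 0.25) and Sin3a, the scaffold of the Sin3 complex, by -0.50 (SE 0.19), or by -0.29 without lymphoma 14. Mta3, a NuRD subunit, differed by -0.72 (SE 0.38).

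Of 13 genes of the Notch pathway in T cells, 0 passed, 0 had an unadjusted limma p under 0.05, and 5 were higher and 8 lower, with a median difference of -0.19. The median was 0.11 without lymphoma 14 and 0.15 without the 7 lymphomas lowest in macrophage genes, so its sign depends on the lymphomas kept. Notch1 was 1.68 in lymphoma 4, 4.17 in lymphoma 11, 0.08 in lymphoma 14 and 4.02 in lymphoma 16, within -1.84 to 6.28 in the others. The Notch target Heyl was 2.70, 4.04, 0.85 and 4.28 in the same order, within -0.20 to 4.75. The target Hes1 was 1.79, 2.60, 1.28 and 3.32, within -1.45 to 3.62, and the target Dtx1 was 0.63, 3.22, -1.25 and 3.24, within -2.65 to 3.99. In these 4 genes lymphomas 11 and 16 were the highest and lymphoma 14 the lowest of the members, and none left the range of the other lymphomas. Notch3 (0.03) and the interleukin-2 receptor chain Il2ra (-1.55) differed with standard errors of 0.61 and 1.08, and Il2ra differed by 0.04 without those 7. Igf1r, the receptor of insulin-like growth factor 1, was between 1.54 and 2.17 in the members, with a difference of 0.55. Hes1, Dtx1, Notch1 and Notch3 were added to the named genes after their values were seen. Notch2, a receptor of other lineages too, was 2.01 in lymphoma 14 and between -0.17 and 0.06 in the other members.

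T cell stage genes gave no common pattern either. In the list of double-positive thymocytes, the cortical stage that carries both Cd4 and Cd8, 0 of 14 measured genes had an unadjusted limma p under 0.05, and the median difference was -0.39, or 0.22 without lymphoma 14. The co-receptor Cd8a was -4.49 in lymphoma 4 and -4.58 in lymphoma 14 but -1.58 in lymphoma 11 and -1.71 in lymphoma 16. The co-receptor Cd4 was between -2.05 and -1.10 in the 4, and the recombinase gene Rag1 was -4.65 in lymphoma 14 and between -2.75 and -2.60 in the other 3. In mature T cell genes 0 of 14, and in the T cell receptor list 0 of 16, had such a p, with median differences of 0.34 and -0.45. Without lymphoma 14 the median of the T cell receptor list was 0.19, and without the 7 lymphomas lowest in macrophage genes that of the mature T cell list was 0.07. Of 19 transcription factors of the T lineage 1 had it, Runx3, which directs Cd8 lineage cells. Runx3 was 0.60, -0.36, 0.25 and -0.04 in lymphomas 4, 11, 14 and 16, against a median of 0.87 in the others, a difference of -0.81 (SE 0.35). Its probes differed by -1.19 and -0.42, so the size depends on the probe. Gfi1, a transcription repressor that acts in developing thymocytes, was -4.58 in lymphoma 14 and between -0.43 and 0.15 in the other members. Of 18 early progenitor genes 1 had such a p, Mef2c, which was 2.52 in lymphoma 14 and between -0.83 and 0.06 in the other 3, and without lymphoma 14 no gene of this list had it. Cd34 was 3.85 in lymphoma 14 and between -3.64 and -1.02 in the other 3.

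Among markers of other cell types, macrophage, endothelial, and fibroblast and matrix genes were mostly higher in the 4 lymphomas. None passed adjustment, and the means of these lists overlapped between the groups. Of 12 measured macrophage genes 0 passed and 5 had an unadjusted limma p under 0.05, all higher, and all 12 were higher with a median difference of 1.76. Without lymphoma 14 none of the 12 had such a p and the median difference was 1.25. The mean of the list was 0.60, 0.35, 2.23 and -0.09 in lymphomas 4, 11, 14 and 16, and ran from -2.97 to 1.66 in the others, 7 of which lay at or below -2.19. None of those 7 is in the group, and without them the median difference of the list was 0.18. Fcgr1, an antibody receptor of macrophages, was 0.42, 1.26, 3.41 and 0.66 in the members, and the complement gene C1qa was 2.92 in lymphoma 14 and between 0.42 and 0.65 in the other 3. The endothelial list was at 2.58 and the fibroblast and matrix list at 3.54 in lymphoma 14, above every other lymphoma. The other 3 ranged from -0.99 to 0.13 and from -0.57 to 0.90. Eng, an endothelial co-receptor, was 2.86 and the collagen Col3a1 4.19 in lymphoma 14. Over both lists 5 of 25 genes had an unadjusted limma p under 0.05, all higher, and none of them without lymphoma 14.

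Striated muscle genes had the largest share of unadjusted p under 0.05 in limma, 10 of 12, all higher, with a median difference of 2.04, but these came from lymphomas 11 and 14. Without lymphoma 14 it was 5 of 12, with a median of 1.36. The list mean was 3.54 in lymphoma 11 and 3.68 in lymphoma 14, and -0.38 in lymphoma 4 and -0.94 in lymphoma 16, against -1.61 to 0.29 in the others. The muscle creatine kinase Ckm was 3.91 and 3.93 in lymphomas 11 and 14, and -0.19 and 0.28 in lymphomas 4 and 16. The myosin Myh2 was 5.39 and 5.71 in lymphomas 11 and 14, and 0.76 and -0.53 in lymphomas 4 and 16. Lymphomas 11 and 16, the most alike pair, were on opposite sides here. The part of macrophage, vessel, matrix and muscle content in the gene differences above was not tested. The chromosome 16 block, singled out for its lowest median difference, was at -0.55 in the reported fit. That median difference was -0.46 with the macrophage list as a covariate, and also -0.46 without the 7 lymphomas low in that list. Vessel, matrix and muscle lists were not used as covariates, and the part of cell content in the block was not tested.

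**Figure D5:**
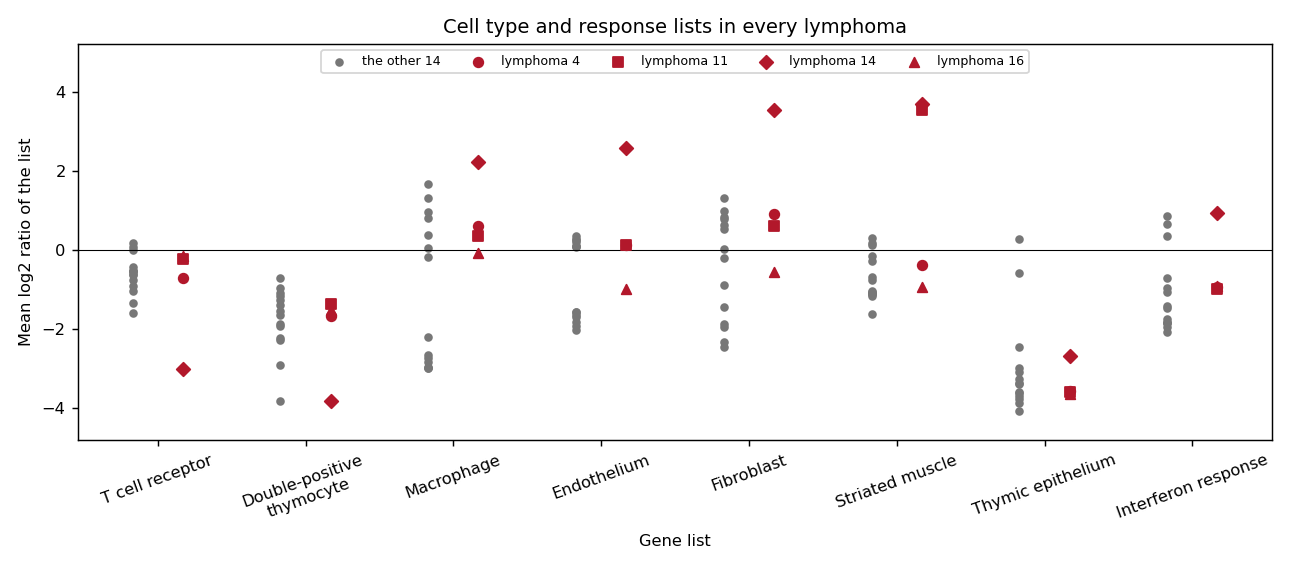
Mean log2 ratio to thymus (vertical axis) of 8 gene lists (horizontal axis), grey dots for the other 14 lymphomas and red symbols for lymphomas 4, 11, 14 and 16. Lymphoma 14 is lowest in the T cell receptor list (-3.01) and highest in the endothelial and fibroblast lists, and lymphomas 11 and 14 are above 3.5 in striated muscle.

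The other lists, with no gene passing, had few low p-values. Over all genes the share with an unadjusted limma p under 0.05 was 6.72%. Over all 4 lymphomas, an unadjusted limma p under 0.05 was found in 2 of 25 cell cycle genes (Mcm4 among them), 1 of 16 thymic epithelial genes, 1 of 7 platelet genes and 1 of 4 sex-linked genes. Without lymphoma 14 these counts were 1 for cell cycle and 0 for the other 3 lists. It was found in 0 of 16 interferon response genes, 0 of 14 cytotoxic cell genes, 0 of 13 dendritic cell and MHC class II genes, 0 of 11 B cell genes, 0 of 8 plasma cell genes, 0 of 9 neutrophil genes, 0 of 7 erythroid genes, 0 of 8 adipocyte genes and 0 of 11 survival and death genes. The Y-linked Eif2s3y was between -7.76 and -7.02 in all 4 and ran from -7.50 to 0.61 in the others.

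A few transcripts were high in lymphomas 11 and 16 and lower in lymphoma 14 than in the other 3 members. Xlr, an X-linked gene of lymphoid cells, was 3.84, 3.63 and 3.97 in lymphomas 4, 11 and 16 and -1.16 in lymphoma 14, and both of its probes showed it. The others ranged from -4.05 to 3.85, and lymphoma 9 was as high. 3830403N18Rik, an X-linked gene, was 2.35, 4.83 and 5.36 in lymphomas 4, 11 and 16 and -0.78 in lymphoma 14, and at most 2.02 in the others. Without lymphoma 14 it differed by 4.70 and passed (limma adjusted p = 0.00935), the only gene to do so in that setting. It passed after the most different member was left out, and over all 4 its adjusted limma p was 0.427. Galnt9, a glycosyltransferase, was 4.12 in lymphoma 11 and 4.45 in lymphoma 16, 1.57 in lymphoma 4 and -0.05 in lymphoma 14, and at most 1.81 in the others. Zfp941 was 3.74 and 3.29 in lymphomas 11 and 16, 1.39 and 1.08 in lymphomas 4 and 14, and at most 2.03 in the others. For Galnt9 and Zfp941 only lymphomas 11 and 16 lay above the range of the other 14. Xlr and Galnt9 were named after their values were seen, and the other 2 because they passed in another setting.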

How the data were processed

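Total RNA of 18 lymphomas and a thymus reference was hybridised to 2-colour Agilent arrays with a dye swap, per the labels, whose labelling protocol speaks of Agilent CGH arrays. The authors' deposited table holds 1 value per probe and lymphoma, taken here as log10 ratios. Base, direction and centring are not stated, and feature extraction, normalization and the merging of the dye swap were not found in any label or header. Values were multiplied by 3.3219 to give log2. Lymphoma over thymus was called likely because the deleted genes Atm and Terc then lie below thymus.

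Of 41175 probes, 31700 carry 1 gene symbol in the platform annotation. Of the 37295 probes with a value on at least 14 arrays, those with 1 gene symbol were averaged per gene, giving 18147 genes. Probe 96 was left out of the fit. The second Ikzf1 probe stayed in it and is counted among the genes, but it is described with no test. Names and gene order came from RefSeq, GRCm38.p6. No source used here names the build behind the array.

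The 4 lymphomas were compared with the other 14 by limma 3.58.1 in R 4.3.3 (lmFit, eBayes, two-sided, Benjamini-Hochberg over all genes, threshold 0.05), checked on simulated data. Errors of differences are limma standard errors. Alternatives changed scaling, filters, probe summary, array weights, variance model, the limit, cell content and the lymphomas kept. The lymphomas and gene lists were chosen with earlier results of these data known.

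Named genes were the Ikaros family, the genes whose groups do not overlap, up to 4 members per list with the smallest p, the neighbours of Ikzf1, and genes that passed in any alternative, with additions marked in the text. Not every gene the rule takes is named.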

Additional observations from a re-analysis of the deposited data

Results flagged for a closer look

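Within the group of 4, 1 lymphoma lay far from the other 3 in 19 of 101 genes and list means examined (18.8%). Chance would mark about 1 in 20 independent items, but many of these genes were named for their values. They also share arrays and list means, so the 18.8% is a description and is not set against chance. Lymphoma 14 was the distant one in 17 of the 19. In T cell genes it was low, at -2.29 for Ikzf2, -1.98 for Ikzf3, -4.65 for Rag1, -4.58 for Gfi1, -2.80 for Zap70, -3.78 for Lat and -3.81 for the mean of the double-positive thymocyte list. It was also low for Xlr (-1.16), Zyg11b (-1.65, or -0.91 to -0.88 in the other 3) and 4930526F13Rik (-1.26). It was high for Socs5 (1.76), Notch2 (2.01), C1qa (2.92) and Eng (2.86). The same held for its means of the cytotoxic cell list (0.66), the thymic epithelium list (-2.68, against -3.64 to -3.56) and the interferon response list (0.94, against -1.0 to -0.92). Lymphoma 16 was far below the others for Acot1 (-3.32), and lymphoma 4 above them for the mean of the cell cycle list (0.47, against 0.08 to 0.13).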

How the results depend on the processing

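Of 35 settings beside the one reported, 14 of 17 that changed the processing or left out several lymphomas, and 13 of 18 that left out 1, called no gene. Array weights called 147 of 18147 genes (0.81%; 92 higher, 55 lower, 26 of the lower on chromosome 16), among them 13 of the 24 without overlap. These weights were highest for lymphomas 11 (3.52) and 16 (1.94), the most alike pair, and lowest for lymphoma 14 (0.28). With 11 and 16 averaged, a setting chosen after seeing the data, limma called 0 genes, and 1123 had an unadjusted p under 0.05. Leaving out the 7 lymphomas low in macrophage genes called 1 gene (Plod2), and leaving out lymphomas 7, 12 and 14 called 3 (Lrrn3, 3830403N18Rik and Zfp941). Leaving out 1 lymphoma called 0 to 2 genes: Rab39b without 4, Lrrn3 without 10, Lrrn3 and Zfp941 without 12, 3830403N18Rik without 14, and Myh2 and Gzmg without 16, where Gzmg has no value in lymphomas 4 and 11. The cause of these changes was not tested. The count without overlap was 64 without lymphoma 14, 120 without lymphoma 4, 177 without the 7 low in macrophage genes, 106 without lymphomas 7, 12 and 14, and 590 without 14 and those 7, and fewer samples make such gaps more frequent by construction. Of 75 named genes, 20 changed sign in at least 1 of 34 settings, and none of the 24 without overlap was among them. No paired analysis was possible because all lymphomas form 1 labelled group. With 4 lymphomas against 14, and signal over background not used here, small differences are not detectable.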

Other observations

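Unnamed probes were fitted separately. Of 7734 such probes, 2 passed limma after adjustment, 1 higher and 1 lower in the 4 lymphomas. An unadjusted limma p under 0.05 was reached by 424 of them, beside 6.72% of the named genes. When all probes were tested together, none passed.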
